A study of Mus musculus with 4 samples.

Results

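Histone lysine methyltransferases and demethylases are the enzymes that place and remove methyl groups on lysines of histones H3 and H4. Here 41 such genes, chosen by a list of symbols, were followed in cartilage of the mouse forelimb among 34547 annotated genes with transcripts in the data, of which 16607 were tested. All 41 were found by symbol in the annotation and all 41 passed the filter on low counts. They comprise 25 methyltransferases, 15 demethylases and Kmt2e, a relative of the methyltransferases that binds methylated H3K4 and has no established activity of its own. Each was placed by hand with the residue it is best known for. This put 13 with H3K4, 13 with H3K9, 2 with H3K27, 9 with H3K36, 1 with H3K79 and 3 with H4K20. Several act on more than 1 residue, so the placing is a simplification.

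Hypertrophic chondrocytes (HC) from forelimbs at embryonic stage E15.5 (replicates 3 and 4) were compared with proliferating chondrocytes (PC) from forelimbs at E14.5 (replicates 1 and 2). All were primary cells of C57BL/6 mice, cut from cryosections by laser microdissection, and the labels give no genotype or treatment that differs between them. How many embryos stand behind a library, and whether animals were pooled, was not stated, so p-values measure the spread between these libraries, which may be technical. Zone and age change together, and cannot be told apart. In such bulk samples fewer cells of a type and less RNA per cell cannot be told apart either.

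Methylation of H3K4 is found at active promoters and enhancers, that of H3K36 and H3K79 along transcribed genes, and that of H3K9, H3K27 and H4K20 largely in silent or compacted chromatin. The SET domain enzymes and the non-SET enzyme Dot1l use S-adenosylmethionine as the methyl donor. Demethylases are either flavin-dependent amine oxidases (Kdm1a and Kdm1b) or JmjC domain enzymes, which need iron, oxygen and 2-oxoglutarate. In the growth plate, proliferating chondrocytes leave the cell cycle and enlarge into hypertrophic ones, and the series is concerned with epigenetic control of that step.

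The libraries held 15246529 and 21866266 estimated counts in HC and 30373440 and 36644496 in PC. The summed level of 10 hypertrophic markers was 34900 and 42500 CPM (estimated counts scaled to library size) in HC and 653 and 2110 in PC, and that of 12 markers of cycling cells was 741 and 276 CPM in HC and 2080 and 2480 in PC. The 8 markers of proliferating chondrocytes summed to 21900 and 30000 CPM in HC and 44200 and 32900 in PC. Sums for several other cell types were higher in HC. Endothelial markers summed to 256 and 133 CPM in HC and 28.5 and 24.2 in PC, those of macrophages and osteoclasts to 362 and 175 against 19 and 29.1, those of red blood cells to 332 and 306 against 24.8 and 43.1, those of osteoblasts to 9950 and 3550 against 412 and 791, and those of muscle to 284 and 73.7 against 27.2 and 39.5. No marker was at 0 in all libraries. Epidermal markers summed to 5.76 and 2.93 CPM in HC and 0.349 and 1.17 in PC, and those of nerve and glia to 4 and 4.02 in HC and 22.4 and 21.3 in PC. Mitochondrial transcripts took 20.16% and 14.11% of counts in HC and 8.81% and 13.15% in PC. The part of these differences in the results below was not tested.

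Of the 41 genes, 1 passed in edgeR's quasi-likelihood test with Benjamini-Hochberg adjustment over all genes at a threshold of 0.05. This was the demethylase Kdm7a, which rose in HC. In the same test 4.71% of all genes passed, 2.75% higher and 1.96% lower in HC, and 1 of 41 (2.44%) is not above that background. At an unadjusted p under 0.05 there were 3 members higher and 2 lower, against 27% of all genes in either direction. In 9 members both HC libraries lay above both PC libraries and in 14 both lay below. Over all genes this held for 27.7% and 33.3%, or 61% in either direction. With 2 libraries against 2, an exact two-sided permutation test of a single gene cannot go below p = 0.33.

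Fold changes of these enzymes spread less widely than those of all genes. The median absolute log2 fold change of HC over PC was 0.40 over the members and 0.82 over all genes tested. The fold was under 2 in either direction, a log2 fold change within 1, for 37 of the 41 members (90.2%) and for 58.1% of all genes. All genes ranged from -12.9 to 10.6 and were not matched to the members in level. The part of level in the narrower spread was not tested. The signed median was -0.22 over the members and -0.04 over all genes. Methyltransferases had a median of -0.32, with 7 of 25 above 0. Demethylases had a median of 0.15, with 8 of 15 above 0. In 11 of 25 methyltransferases (44%) both HC libraries lay below both PC libraries, against 33.3% of all genes. In 5 of 15 demethylases (33.3%) both lay above, against 27.7%. Neither class was tested as a set.

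**Figure D1:**
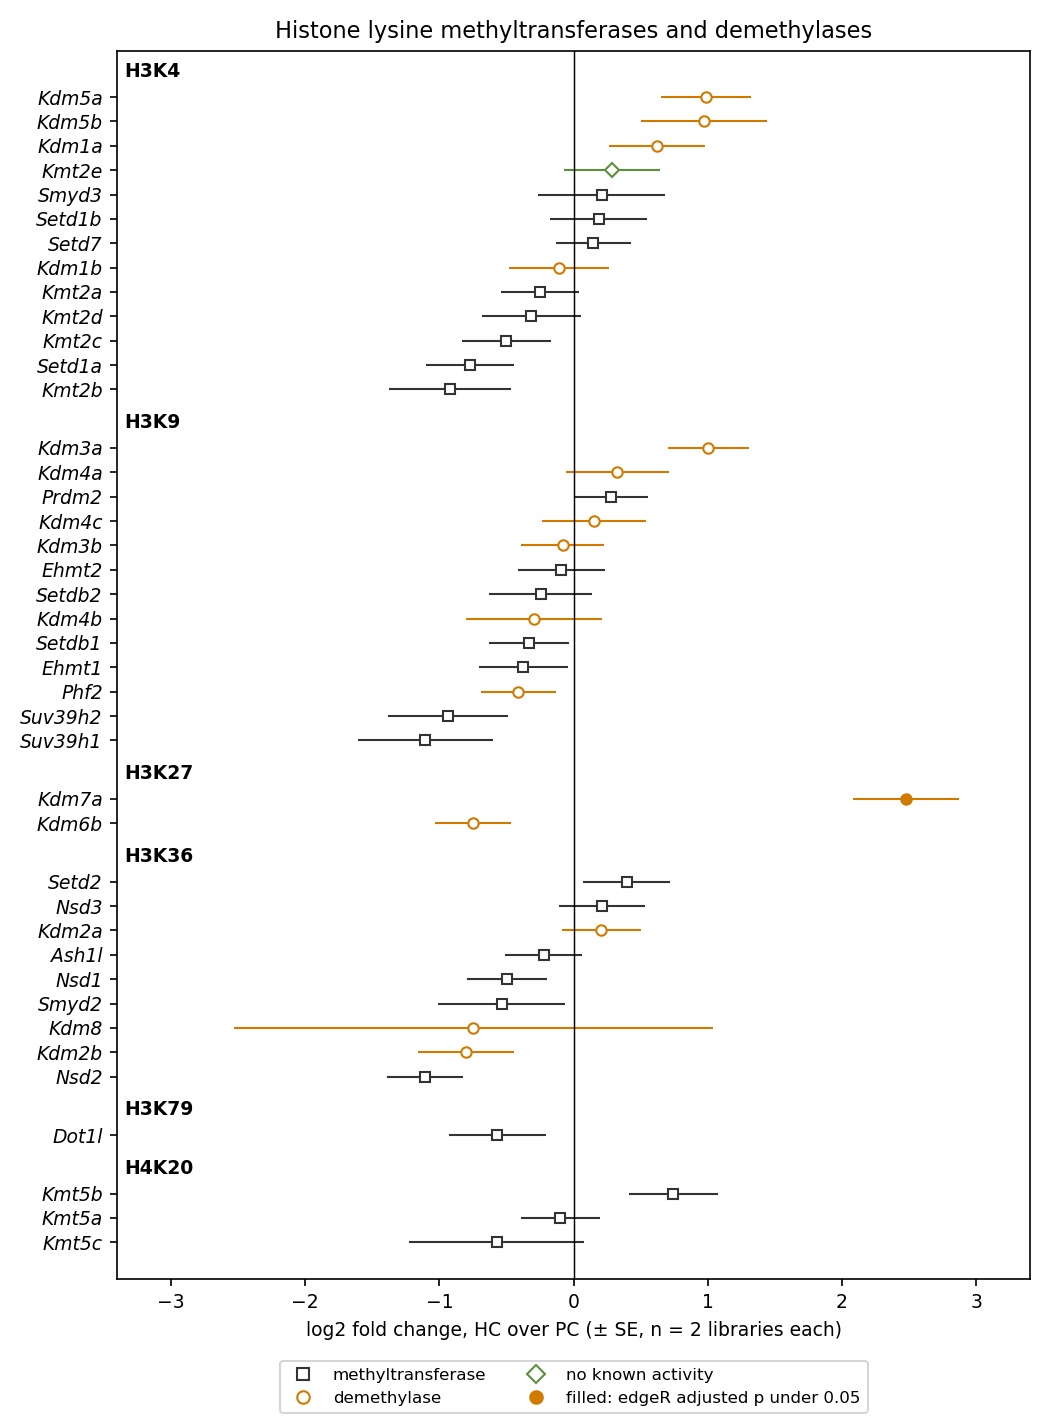
Log2 fold change of HC over PC for each of the 41 genes, with its standard error (n = 2 libraries per group), grouped by target residue. Squares are methyltransferases, circles demethylases and the diamond is Kmt2e. The filled circle is Kdm7a, at 2.48, the member that passed, and the other 40 lie between -1.11 and 1.01.

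The pair of demethylases placed with H3K27 had fold changes of opposite sign, and 1 of the 2 passed. Kdm7a is a JmjC enzyme with a PHD finger that removes dimethyl marks from H3K27 and H3K9, and Kdm6b removes di- and trimethyl marks from H3K27. Kdm7a (chromosome 6, 39136623 to 39206789, minus strand) had 116 and 201.5 CPM in HC and 24.8 and 32.3 CPM in PC. Both HC libraries lay well above both PC libraries. The rise was 5.56-fold, a log2 fold change of 2.48 ± 0.39 (SE, n = 2 per group, edgeR adjusted p = 0.038). Without HC replicate 4 it was 1.97, and without HC replicate 3 it was 2.79, and the call held without each of the 4 libraries. The call ended when libraries were scaled to their size alone (2.26, edgeR adjusted p = 0.0638) and with protein coding transcripts alone (2.78, edgeR adjusted p = 0.053). It also ended with limma-trend on log2(TPM + 1) (1.56, limma adjusted p = 0.182). In each of these settings 0% of all genes passed. With an offset for effective length, where 2.63% of all genes passed, the call ended too (2.19, edgeR adjusted p = 0.0544).

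Kdm6b (chromosome 11, 69398508 to 69413675, minus strand) had 127 and 126 CPM in HC and 229 and 197 CPM in PC. The HC libraries were nearly equal and lay below both PC libraries. At -0.75 ± 0.28 on the log2 scale it stayed short of the threshold (edgeR adjusted p = 0.16). The summed level of the pair was 243 and 327 CPM in HC and 254 and 230 CPM in PC, so the groups overlapped in the sum while its make-up differed. TPM, a relative transcript abundance that is scaled to transcript length, allows the genes to be set side by side. Kdm7a had 14.3 and 40.9 TPM in HC and 7.45 and 7.71 TPM in PC. Kdm6b had 15.51 and 23.9 TPM in HC and 54.7 and 42.5 TPM in PC. The ratio of Kdm7a to Kdm6b within a library, which no scaling between libraries can alter, was 0.923 and 1.71 in HC and 0.136 and 0.182 in PC. That ratio counts Kdm7a-202, which is not annotated as protein coding. It took 46.3% and 51.5% of Kdm7a TPM in HC and 68% and 60.7% in PC. The coding transcript, Kdm7a-201, had 7.69 and 19.9 TPM in HC and 2.38 and 3.04 TPM in PC. Kdm6b-201, which is coding, took 100% of Kdm6b TPM in both HC libraries. Coding Kdm7a thus rose in HC but stayed below Kdm6b in each library. Kdm6a, the X-linked H3K27 demethylase, was not among the members. It had 91.5 and 139 CPM in HC and 61.2 and 44.7 CPM in PC, and did not pass (1.12 ± 0.35, edgeR adjusted p = 0.113).

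The 250 bases before the RefSeq start of Kdm7a (chr6:39206774-39207023, minus strand, GRCm38.p6) are shown because it is the member that passed. They are printed 5′ to 3′ beside those of Kdm3a (chr6:71632918-71633167, minus strand), the member with the next lowest p among those higher in HC. Capitals mark ACGTG on either strand, a form of the core of the hypoxia response element. The form that begins with G, GCGTG, was neither searched nor marked.
Kdm7a: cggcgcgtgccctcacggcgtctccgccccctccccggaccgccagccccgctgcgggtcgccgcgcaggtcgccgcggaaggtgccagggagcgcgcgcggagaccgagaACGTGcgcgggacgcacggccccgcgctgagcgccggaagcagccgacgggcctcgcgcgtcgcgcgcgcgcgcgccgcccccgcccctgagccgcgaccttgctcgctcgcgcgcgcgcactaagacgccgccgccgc
Kdm3a: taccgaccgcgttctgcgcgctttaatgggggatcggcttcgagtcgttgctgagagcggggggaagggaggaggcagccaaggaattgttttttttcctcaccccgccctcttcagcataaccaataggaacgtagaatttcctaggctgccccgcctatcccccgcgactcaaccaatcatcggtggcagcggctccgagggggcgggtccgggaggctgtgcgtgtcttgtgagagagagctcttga
The Kdm7a window is 82% G or C and holds 56 CpG pairs, against medians of 52.4% and 6 over all 32851 windows of the same length. It has 1 match to ACGTG, which begins 139 bases before the start. The Kdm3a window is 59.6% G or C with 20 CpG pairs and has no match to ACGTG. Both windows hold the unsearched form GCGTG. RefSeq windows were found for 27 of the 41 members. The window nearest to the gene's annotated 5′ end was counted, 1 per member, which for Kdm4c is the upstream one of the pair shown further on, while the share of all windows counts every window. ACGTG, on either strand, is in 5 of these 27 windows (18.5%) and in 16.6% of all windows. TGTGGT, the RUNX core, is in 0 of 27 and in 14% of all windows, and TTTGAA, the cell cycle homology region, in 2 of 27 and 16%. The E2F forms TTTGGCGC and TTTCCCGC are in 0 and 1 of 27, and in 0.417% and 0.895% of all. Of these motifs none is contained in another, though ACGTG is also part of the E-box CACGTG. These are matches of letters, not binding sites.

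Of the 13 genes placed with H3K4, 4 are demethylases. In CPM, 3 of these had both HC libraries above both PC libraries, against 27.7% of all genes. In TPM this held for Kdm5a alone, while the groups of Kdm1a and Kdm5b overlapped and Kdm1b lay below. None of the 13 passed (edgeR), and 1 had an unadjusted p under 0.05, against 27% of all genes. Kdm5a and Kdm5b, JmjC enzymes that remove di- and trimethyl marks, stood at 0.99 ± 0.33 and 0.97 ± 0.47 on the log2 scale (edgeR adjusted p = 0.13 for Kdm5a and 0.249 for Kdm5b). Kdm5a had 120 and 187 CPM in HC and 75.9 and 78.8 CPM in PC. Kdm5a-205, annotated as keeping an intron, took 66.1% and 65% of its TPM in HC and 47.4% and 58.2% in PC. The main coding transcript, Kdm5a-201, overlapped, with 4.84 and 16.6 TPM in HC and 7.87 and 6.72 TPM in PC. Kdm5b had 127 and 311 CPM in HC and 104 and 120 CPM in PC, and its log2 fold change was 0.14 without HC replicate 4. Without HC replicate 3, Kdm5a was at 1.24 and Kdm5b at 1.45. Over all libraries Kdm5a passed in DESeq2 (1.01, DESeq2 adjusted p = 0.0393), where 18.1% of all genes passed. Kdm1a (LSD1), the amine oxidase that removes mono- and dimethyl marks, had 90.7 and 144 CPM in HC and 64.6 and 87.6 CPM in PC (0.63 ± 0.36, edgeR adjusted p = 0.326). HC replicate 3 lay just above the higher PC value, and HC replicate 4 well above it. Its relative Kdm1b had overlapping groups and a log2 fold change of -0.11. Summed over these 4 genes, the level was 350 and 657 CPM in HC and 257 and 302 CPM in PC. In TPM the sums overlapped, with 163.3 and 346.2 in HC and 155.6 and 189.3 in PC.

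The H3K4 methyltransferases of the COMPASS type mostly had negative fold changes and none passed. Setd1a, a catalytic subunit for H3K4 trimethylation, had 42.1 and 56.5 CPM in HC and 96.9 and 71.2 CPM in PC (-0.77 ± 0.33, edgeR adjusted p = 0.2). Kmt2b had 26.5 and 54.3 CPM in HC and 94.3 and 58.7 CPM in PC (-0.92 ± 0.45, edgeR adjusted p = 0.259). Neither overlapped between groups, but HC replicate 4 came close to PC replicate 2 in both. Without HC replicate 4, a setting in which 39% of all genes passed, Setd1a was at -1.05 (edgeR adjusted p = 0.0479) and Kmt2b at -1.58 (0.014). Kmt2a, the founding member, had 143 and 174 CPM in HC and 195 and 183 CPM in PC, and Kmt2c, which with Kmt2d marks enhancers, had 123 and 191 in HC against 218 and 227 CPM in PC. Their log2 fold changes were -0.25 ± 0.29 and -0.50 ± 0.33. Kmt2d (-0.32 ± 0.37) and Setd1b (0.19 ± 0.36) had overlapping groups. Kmt2e, the member without established activity, had 384 and 497 CPM in HC and 284 and 437 CPM in PC (0.29 ± 0.36). The monomethyltransferase Setd7 was among the steadiest members, with 115 and 114 CPM in HC and 96.0 and 111 CPM in PC (0.15 ± 0.28). Smyd3 stood at 0.21 ± 0.47, with 27.7 and 12.2 CPM in HC and 16.2 and 18.2 CPM in PC, and turned to -0.53 without HC replicate 3. The 8 methyltransferases summed to 738 and 1046 CPM in HC and 1160 and 1035 CPM in PC, which overlap.

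**Figure D2:**
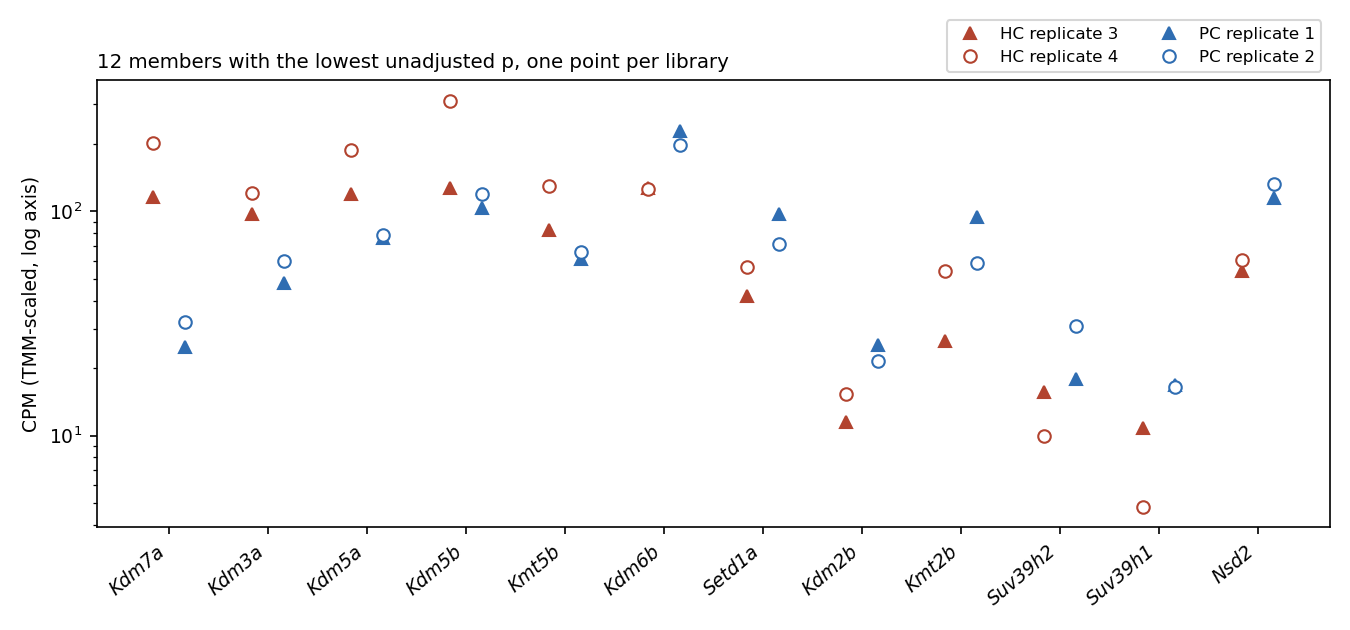
Level in each library (CPM, log axis) of the 12 members with the lowest unadjusted p, ordered by log2 fold change, with HC left of PC. Kdm7a has the widest gap, with 116 and 201.5 CPM in HC above 24.8 and 32.3 CPM in PC, while in Kdm5b, Kmt2b and Suv39h2 a library of one group comes closest to the other group.

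Of the 13 genes placed with H3K9 none passed in edgeR's test. In 1, Kdm3a, the unadjusted p was under 0.05, against 27% of all genes. The demethylase Kdm3a, which removes mono- and dimethyl marks and is induced by hypoxia in many cells, had 96.9 and 120 CPM in HC and 47.9 and 60.3 CPM in PC. In CPM the groups were well apart, and the log2 fold change was 1.01 ± 0.30 (edgeR adjusted p = 0.106). Without HC replicate 3 it was at 1.12. Kdm3a-205, annotated as keeping an intron, took 54.2% and 68.2% of Kdm3a TPM in HC and 21.9% and 46.7% in PC. The coding transcripts differed in direction. Kdm3a-214 had 9.66 and 11.4 TPM in HC and 3.55e-06 and 6.28 TPM in PC. Kdm3a-201 had 0 counts in both HC libraries and 8.86 and 6.04 TPM in PC. Kdm3a passed in DESeq2 (1.02, DESeq2 adjusted p = 0.0244), where 18.1% of all genes passed. The most negative fold changes were those of Suv39h1 and Suv39h2, which trimethylate H3K9 in pericentric heterochromatin. Suv39h1 had 10.8 and 4.82 CPM in HC and 16.9 and 16.5 CPM in PC (-1.10 ± 0.51, edgeR adjusted p = 0.229). Suv39h2 had 15.6 and 9.99 CPM in HC and 17.8 and 30.9 CPM in PC (-0.94 ± 0.45, edgeR adjusted p = 0.245). In both, HC replicate 4 was the lowest library, and it also had the lowest level of cycling markers. Without HC replicate 3, Suv39h1 was at -1.82 and Suv39h2 at -1.32. The part of cycling cells in this was not tested.

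The other H3K9 methyltransferases differed by less than a factor of 2. Ehmt1 and Ehmt2 (GLP and G9a), which work as a pair to place dimethyl marks, had log2 fold changes of -0.37 ± 0.33 and -0.09 ± 0.32. Ehmt1 had 60.4 and 94.7 CPM in HC and 104 and 97.0 CPM in PC, and Ehmt2 overlapped. Setdb1, which works with the corepressor Trim28, was at -0.34 ± 0.30, with 53.9 and 72.6 CPM in HC and 80.9 and 78.8 CPM in PC, and Setdb2 at -0.25 ± 0.38. Prdm2 had 106 and 113 CPM in HC and 94.4 and 86.3 CPM in PC (0.28 ± 0.28). Of the remaining demethylases, Phf2 was lower in both HC libraries, with 72.7 and 83.9 CPM against 108 and 99.9 CPM in PC (-0.41 ± 0.28). Kdm4a, Kdm4b and Kdm4c, which act on trimethylated H3K9 and H3K36, had overlapping groups and log2 fold changes of 0.33 ± 0.38, -0.29 ± 0.51 and 0.15 ± 0.39. Kdm3b overlapped too, at -0.08 ± 0.31. The summed level was 285 and 345 CPM in HC and 364 and 356 CPM in PC for the 7 methyltransferases. It was 319 and 416 CPM in HC and 346 and 320 CPM in PC for the 6 demethylases.

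Among the 9 genes placed with H3K36 none passed in edgeR's test. In 1, Nsd2, the unadjusted p was under 0.05, against 27% of all genes. Nsd2, which places dimethyl marks, had 54.3 and 60.7 CPM in HC and 115 and 133 CPM in PC. Replicates were close in both groups and the groups were well apart (-1.11 ± 0.29, edgeR adjusted p = 0.0816). Without HC replicate 4 Nsd2 was at -1.24. It passed in DESeq2 (-1.09, DESeq2 adjusted p = 0.00783), where 18.1% of all genes passed. Its paralogs Nsd1 and Nsd3 had log2 fold changes of -0.50 ± 0.30 and 0.21 ± 0.32. Nsd1 had 276 and 323 CPM in HC and 407 and 438 CPM in PC, and Nsd3 overlapped. The ratio of Nsd2 to Nsd1 in TPM was 0.17 and 0.241 in HC and 0.505 and 0.398 in PC. That ratio counts a short Nsd1 transcript that is not annotated as protein coding. This transcript took 57.6% and 32.5% of Nsd1 TPM in HC and 6.64% and 32% in PC. It thus lowers the ratio most in HC replicate 3 and least in PC replicate 1. The ratio was not computed for coding transcripts alone, so a shift between the coding forms is not shown.

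Setd2, which places the trimethyl mark of transcribed genes, had 325 and 343 CPM in HC and 207 and 301 CPM in PC (0.40 ± 0.33, edgeR adjusted p = 0.489). On the log2(TPM + 1) scale it was at -0.23, where the median of all genes was -0.39, so that it lay above the median of all genes on both scales. Ash1l had 218 and 246 CPM in HC and 264 and 278 CPM in PC (-0.22 ± 0.29). Smyd2, which also methylates non-histone proteins, had 23.2 and 10.0 CPM in HC and 23.0 and 25.0 CPM in PC (-0.54 ± 0.47). It was at -1.29 without HC replicate 3. The demethylase Kdm2b had 11.5 and 15.3 CPM in HC and 25.3 and 21.5 CPM in PC (-0.80 ± 0.36, edgeR adjusted p = 0.218), and its relative Kdm2a overlapped at 0.21 ± 0.29. Without HC replicate 4 Kdm2b was at -1.07. Kdm8 was the lowest member, with 50 and 0 counts in HC and 145 and 96 counts in PC, and its SE of 1.79 exceeds its log2 fold change of -0.75.

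Dot1l, the H3K79 methyltransferase, had 63.2 and 97.1 CPM in HC and 141 and 97.0 CPM in PC, with overlapping groups (-0.57 ± 0.36, edgeR adjusted p = 0.372). Of the H4K20 enzymes, Kmt5a places the monomethyl mark, while Kmt5b and Kmt5c extend it to di- and trimethyl. Kmt5b had 82.6 and 130 CPM in HC and 61.1 and 65.8 CPM in PC, groups that did not overlap (0.74 ± 0.33, edgeR adjusted p = 0.22). Without HC replicate 3 it was at 1.0. Kmt5c had 6.33 and 25.3 CPM in HC and 26.7 and 20.6 CPM in PC. The ratio of HC replicate 3 to HC replicate 4 was 0.25, and the log2 fold change of -0.57 ± 0.65 went to -1.95 without HC replicate 4 and to 0.06 without HC replicate 3. Kmt5a had 126 and 112 CPM in HC and 113 and 141 CPM in PC (-0.10 ± 0.29). The ratio of Kmt5b to Kmt5c in TPM was 15.7 and 4.21 in HC and 0.923 and 1.62 in PC. In both genes most TPM was assigned to transcripts under 1000 bases, 57.2% for Kmt5b and 72.1% for Kmt5c.

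**Figure D3:**
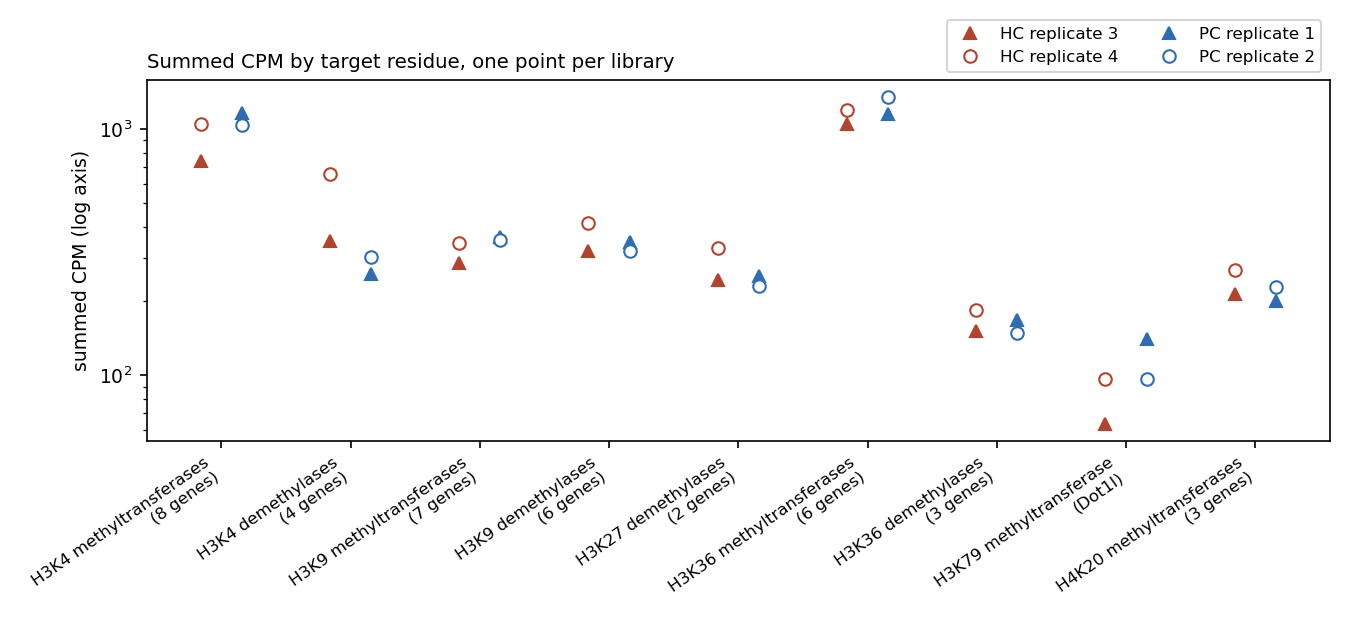
Summed CPM (log axis) of the methyltransferases and of the demethylases of each residue, with a point per library and HC left of PC. The 4 H3K4 demethylases, at 350 and 657 CPM in HC against 257 and 302 CPM in PC, do not overlap, though their TPM sums do. Nor do the 7 H3K9 methyltransferases overlap, at 285 and 345 CPM against 364 and 356 CPM. The H3K27, H3K36, H3K79 and H4K20 sums and those of the other H3K4 and H3K9 class overlap.

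The HC libraries stood apart from each other in many of these genes. HC replicate 3 lay below HC replicate 4 in 32 of 41 members (78%) and in 51.6% of all genes tested. The median ratio of replicate 3 to replicate 4 was 0.763 over the members and 0.93 over all genes. Members took 0.307% and 0.51% of all estimated counts in HC replicates 3 and 4, and 0.49% and 0.473% in PC replicates 1 and 2. In PC, replicate 1 lay below replicate 2 in 21 of 41 members. HC replicate 3 also had a shorter fitted fragment length. The median of effective minus annotated length was -124.7 and -145.5 bases in HC and -172.8 and -153.3 bases in PC. Its part in these gaps was not tested. Which members passed without a library therefore depended on the library. Without HC replicate 3, 5 members were higher and 4 lower, and without HC replicate 4, 1 was higher and 5 lower, when 28.3% and 39% of all genes passed.

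In TPM, which compares genes per length, the members ranged from 1.43 (Kdm8) to 156 (Kmt5a) as means over the 4 libraries, with a median of 23.8. The order depends on short transcripts. In 12 members over 50% of the TPM was assigned to transcripts under 1000 bases, among them Kmt5a (65.4%), Kdm1a (122 TPM, 74.2%), Ehmt1 (111 TPM, 86.3%) and Kdm4b (81.7 TPM, 90.4%). Among members with under 5% in such transcripts the highest were Kmt2e (75.4 TPM), Setd2 (53 TPM), Nsd3 (51.5 TPM), Kdm6b (34.1 TPM) and Ash1l (31.3 TPM). At the low end, Kdm1b (4.06 TPM), Suv39h1 (5.87 TPM) and Setdb2 (6.36 TPM) followed Kdm8. Of the estimated counts of all members, 87.5% and 90.6% in HC and 91.3% and 91.4% in PC were assigned to transcripts annotated as protein coding.

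The tables list transcripts, so the use of transcripts within each gene was also compared. In edgeR's diffSpliceDGE test with Simes p-values per gene, 37 members had enough transcripts to be tested and 1, Ash1l, passed (edgeR adjusted p = 0.0257). Over all genes 0.174% passed, which is 16 of 9183, and 20.6% had an unadjusted p under 0.05. Ash1l places dimethyl marks on H3K36. Its transcript Ash1l-202 was listed at 0 counts in both HC libraries and had 1118 and 611 estimated counts in PC. That is 12.5% and 5.83% of the sum with Ash1l-201 in PC. Ash1l-201, the main transcript, had 2637 and 5306 counts in HC and 7795 and 9869 in PC. The pair share the same coding sequence of 8874 bases. Reads from exons common to both cannot tell them apart, and these counts are likelihood estimates. Other members had transcripts at 0 counts in both HC libraries as well. Among these were Kdm3a-201 (947.5 and 828.3 counts in PC) and Suv39h2-204 (251.4 and 392.5 counts in PC). Ash1l-202 has a further first exon (chromosome 3, 88950622 to 88950995), without coding sequence, which starts 15190 bases before the start of Ash1l-201. Leaving out PC replicate 1 or PC replicate 2 ended the call (edgeR adjusted p = 1 and 0.975), and in both settings 0 of all genes passed. The call held in the gene-level F-test (0.0151), without HC replicate 3 (0.0206) and without HC replicate 4 (0.0122).

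Kdm4c, which had the next lowest p, differed in the estimated counts of a pair of transcripts with separate first exons. It missed the threshold (edgeR adjusted p = 0.076), and passed in the gene-level F-test (0.0228), where 552 of 9183 genes passed. It passed without HC replicate 3 (0.0239), where 388 of 10548 genes did, and without HC replicate 4 (0.0102), where 1383 of 10431 did. It did not pass without PC replicate 1 (1) or PC replicate 2 (0.983). Kdm4c-202 had 388 and 403 estimated counts in HC and 0.6 and 0 in PC. Kdm4c-201 had 48.4 and 39.7 counts in HC and 741 and 974 in PC. In HC, Kdm4c-202 thus made 88.9% and 91% of the sum of the pair, against 0.0841% and 0% in PC. The transcripts are of nearly the same length, 4189 and 4196 bases, and share the same coding sequence of 3162 bases. They differ in the first exon alone, of 144 bases in Kdm4c-202 (chromosome 4, 74242497 to 74242640) and 151 bases in Kdm4c-201 (74251936 to 74252086), which are noncoding and start 9439 bases apart. Reads from the rest of the transcript cannot tell them apart, and these counts are the authors' likelihood estimates without a deposited error. The summed gene level of Kdm4c overlapped between groups, with 35.4 and 19.9 CPM in HC and 23.4 and 26.3 CPM in PC.

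The 250 bases before the RefSeq start that goes with each first exon (plus strand, GRCm38.p6) are shown. They were chosen because the estimated counts of Kdm4c-201 and Kdm4c-202 differ so widely between HC and PC. The upstream window is chr4:74242247-74242496, directly before the first exon of Kdm4c-202. The downstream window is chr4:74251629-74251878, whose RefSeq start lies 57 bases before the first exon of Kdm4c-201. Capitals again mark ACGTG on either strand.
Kdm4c-202: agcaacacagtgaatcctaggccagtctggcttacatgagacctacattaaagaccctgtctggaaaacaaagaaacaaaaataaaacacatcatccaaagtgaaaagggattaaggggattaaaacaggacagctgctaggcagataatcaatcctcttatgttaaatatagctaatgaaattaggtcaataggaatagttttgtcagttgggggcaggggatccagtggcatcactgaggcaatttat
Kdm4c-201: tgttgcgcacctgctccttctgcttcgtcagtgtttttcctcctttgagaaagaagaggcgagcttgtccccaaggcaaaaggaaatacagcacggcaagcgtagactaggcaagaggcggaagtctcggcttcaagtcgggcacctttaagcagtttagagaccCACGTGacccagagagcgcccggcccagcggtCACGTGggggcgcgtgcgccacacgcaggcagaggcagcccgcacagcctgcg
The windows differ in base composition. That of Kdm4c-202, the main transcript of HC by estimated counts, is 39.6% G or C with 0 CpG pairs and no match to a searched motif. That of Kdm4c-201, the main transcript of PC by estimated counts, is 60.4% G or C with 19 CpG pairs. It holds the palindrome CACGTG in 2 places, each of which gives a match to ACGTG on either strand, with the plus-strand matches beginning 84 and 52 bases before the start.

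**Figure D4:**
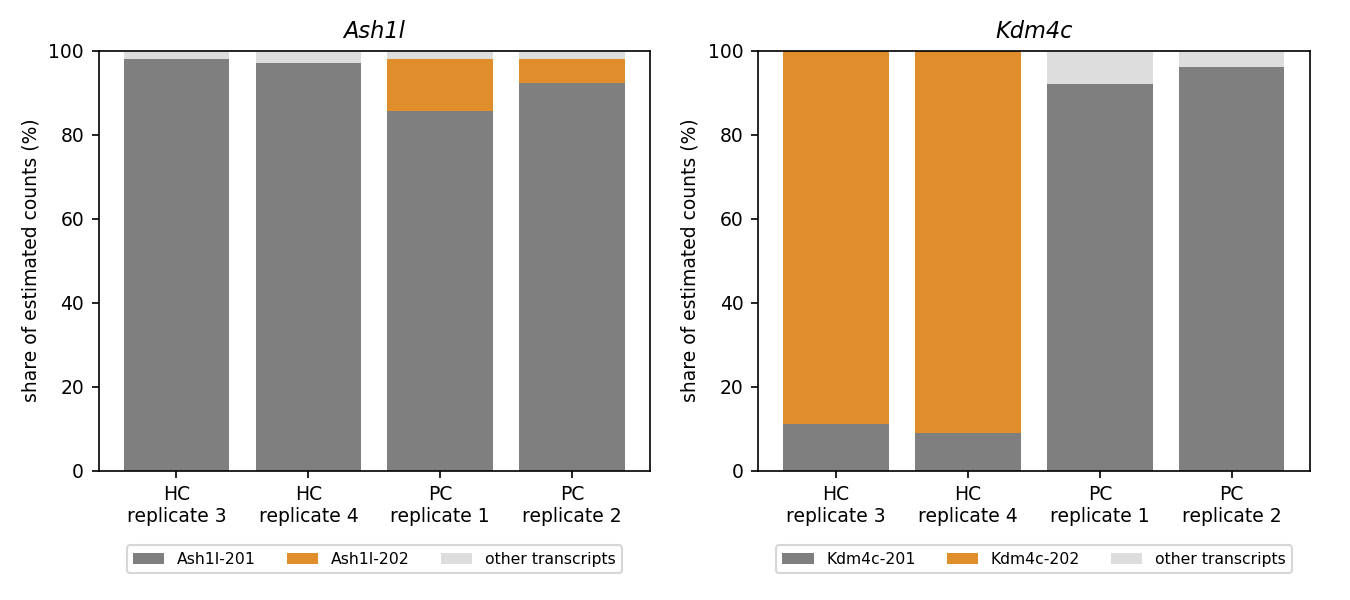
Share of each gene's estimated counts (%) assigned to the transcript pair named in each panel and to all others, for Ash1l (left) and Kdm4c (right), with a bar per library and HC left of PC. Ash1l-202 appears in PC alone, and Kdm4c-202 fills most of the HC bars but is close to 0 in PC.

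Among 113 partner subunits, readers, further enzymes and cofactor genes, 111 could be tested (Gfi1b and Kdm4d were too low), and 3 rose and 2 fell, or 4.5%, against 4.71% of all genes. The median log2 fold change of these genes was -0.20. Zfp217, a partner of Kdm1a and Kdm5b in repressor complexes, had 40.2 and 68.8 CPM in HC and 5.29 and 8.02 CPM in PC (3.03 ± 0.44, edgeR adjusted p = 0.0365). Ell2, an elongation factor of complexes that overlap those of Dot1l, had 318 and 444 CPM in HC and 47.8 and 79.3 CPM in PC (2.58 ± 0.40, edgeR adjusted p = 0.037). Both rose in HC, with libraries well apart, as 1 of 13 tested genes of their lists each (medians -0.06 and 0.40).

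Of 27 further lysine methyltransferase and demethylase genes tested, 1 rose and 1 fell. Prdm16, an H3K9 methyltransferase, had 10.2 and 11.3 CPM in HC and 52.1 and 35.9 CPM in PC (-2.04 ± 0.35, edgeR adjusted p = 0.0422), and did not pass without PC replicate 1 (-1.78, 0.182). Smyd1, a methyltransferase of heart and skeletal muscle, had 8.93 and 10.4 CPM in HC and 0.116 and 0.312 CPM in PC, from 110 and 231 counts in HC and 4 and 12 counts in PC (5.46 ± 0.80, edgeR adjusted p = 0.037). It was at 6.28 without PC replicate 2 and 4.90 without PC replicate 1. Muscle markers were higher in HC too, at the sums given above, and 1 of 7 tested passed. Their part in the rise of Smyd1 was not tested. The H3K27 methyltransferases Ezh2 and Ezh1 had opposite signs and neither passed. Ezh2 stood at -0.68 ± 0.34 (edgeR adjusted p = 0.273) and Ezh1 at 0.85 ± 0.41 (edgeR adjusted p = 0.246).

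Shmt2, a mitochondrial enzyme that feeds serine carbon into the folate cycle, had 20.5 and 15.4 CPM in HC and 140 and 87.3 CPM in PC (-2.67 ± 0.38, edgeR adjusted p = 0.0359). It was the 1 gene of 20 methyl donor and cofactor enzymes that passed, and the list's median was -0.42. All 5 of these calls ended when libraries were scaled to their size alone, in limma-trend on TPM and with protein coding transcripts alone. In each of these settings 0% of all genes passed, so no call could hold there. Mat2a, which makes S-adenosylmethionine, had 45.8 and 30.4 CPM in HC and 58.5 and 58.0 CPM in PC and did not pass (-0.61 ± 0.33).

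No gene passed of 13 COMPASS subunits (median -0.38), of 13 H3K9 partners and readers (median -0.14) or of 13 H3K36 readers and partners (median 0.01) in edgeR's test. At an unadjusted p under 0.05 these lists had 1 gene higher and 2 lower, 1 higher and 2 lower, and 0 higher and 1 lower, against 12.7% higher and 14.4% lower of all genes. The lowest adjusted p among the COMPASS subunits was 0.0914, for Men1, the menin that binds Kmt2a and Kmt2b, with 8.28 and 13.8 CPM in HC and 34.9 and 26.6 CPM in PC (-1.47 ± 0.41). The shared subunits Wdr5, Rbbp5 and Ash2l stood at -0.38 ± 0.36, 0.17 ± 0.35 and -0.25 ± 0.41. Trim28 and the heterochromatin proteins Cbx1, Cbx3 and Cbx5 were lower in both HC libraries than in both PC libraries, at -0.87, -0.64, -0.60 and -0.63, and none of these passed. In their list of 13 this held for 6 genes, against 33.3% of all genes, and 5 had positive fold changes. The Dot1l partners Mllt3 and Mllt10 were at -1.50 ± 0.34 (edgeR adjusted p = 0.0633) and -0.29 ± 0.28, and the Kdm1a partner Rcor1 at -0.22 ± 0.43.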

How the data were processed

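RNA of 4 libraries, 2 of HC and 2 of PC, was measured by sequencing. Per the labels' protocols it came from microdissected cryosections and went through a library kit for degraded RNA. Trimmomatic 0.36, kallisto 0.43.1 and the build mm10 are named in the submitters' processing notes. Per the file headers, the deposited tables give an estimated count and a TPM value for each transcript, with its length and effective length. No strand setting is stated, so reads of overlapping or antisense genes may be shared, and TPM keeps no depth.

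Of 109282 transcripts, 107987 matched GENCODE M21 (GRCm38) without version and were summed to 34547 genes. Unmatched transcripts held 0.362% to 0.534% of counts and stayed out. Expected counts were rounded to whole numbers and filtered with filterByExpr (minimum count 10). They were scaled by TMM (factors 0.812 and 1.021 in HC, 1.14 and 1.058 in PC), which is the scale of CPM, and tested with edgeR 4.0.16 in R 4.3.3 on 2 residual degrees of freedom per gene. SE values were derived from the coefficient and its F statistic. DESeq2 1.42.0 and limma 3.58.1, with a pseudocount of 1 or 0.1, served as alternatives. Python 3.11.15, pandas 2.3.3 and matplotlib 3.10.9 were used for summing and plots. Replicate tables were not copies of each other (chi-square of counts per degree of freedom 193 in HC and 102 in PC). The tests were also run on simulated counts with the same dispersion for all genes. Those counts held no gap between replicates and no reads shared between transcripts, so they check the tests for neither.

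The members, the 7 partner lists and 10 marker lists were chosen with earlier results of these data known. By rule, all members are given, with the 3 highest in TPM and the 3 lowest in p of each residue in full. Of partners, those that passed and a fixed set of subunits are named. Kdm6a and the further enzymes belong to these lists, and Ezh1, Ezh2 and Mat2a were added after their values were seen. Motifs were searched as letters in RefSeq windows of GRCm38.p6.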

Additional observations from a re-analysis of the deposited data

How the results depend on the processing

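No paired analysis was possible because HC and PC share no replicate numbers in the labels. Of 574 comparisons of a member's fold change with its 14 alternatives, 503 kept direction and side of the threshold. For the 40 members that did not pass in the main fit, keeping the side means not passing again. Counts of calls are given higher first, then lower in HC. All genes gave 457 and 325, with 0 and 0 for library size alone, limma-trend at either pseudocount and protein coding transcripts alone. They gave 963 and 965 with no filter, 1651 and 1446 in DESeq2, 269 and 167 with the length offset, and 379 to 3331 and 257 to 3775 with a library left out. Members gave 1 and 0, with 0 higher for library size alone, limma-trend, the offset and protein coding transcripts alone, 3 and 1 in DESeq2, and 1 to 5 and 0 to 5 with a library left out. At an unadjusted p under 0.05, library size alone gave 1 higher and 5 lower members. Partner lists gave 3 and 2, with 0 and 0 for library size alone, limma-trend and protein coding transcripts alone, 11 lower with no filter, 9 and 13 in DESeq2, and 3 to 12 and 2 to 30 with a library left out. Transcript use gave 1 member where 16 of 9183 genes passed, 3 in the gene-level F-test where 552 of 9183 did, and 0 to 10 with a library left out, where 0 to 1383 genes did. The median of all genes moved to -0.29 for library size alone, -0.25 with no filter, -0.20 in DESeq2, and -0.39 and -0.59 for limma-trend with pseudocounts of 1 and 0.1. Some signs reversed. With the offset the members were Kdm3b (1.70), Kdm4a (-0.09), Kdm4b (0.55) and Kdm4c (-0.28). By library size alone they were Setd1b (-0.03), Setd7 (-0.11), Smyd3 (-0.11), Kdm4c (-0.15), Nsd3 (-0.02) and Kdm2a (-0.04). In limma-trend, with pseudocounts of 1 and 0.1, they were Kmt2e (-0.24, -0.25), Setd1b (-0.15, -0.18), Setd7 (-0.34, -0.35), Smyd3 (-0.43, -0.49), Prdm2 (-0.21, -0.22), Kdm3b (0.36, 0.35), Kdm4a (-0.57, -0.62), Kdm4b (0.09, 0.09), Kdm4c (-0.70, -0.77), Setd2 (-0.23, -0.23) and Nsd3 (-0.27, -0.27). Protein coding transcripts alone turned Ehmt2 (0.04). With a library left out, the lowest and highest values were -0.03 and 0.60 for Kmt2e, -0.33 and 0.51 for Setd1b, -0.53 and 0.64 for Smyd3, -0.36 and 0.06 for Ehmt2, -0.36 and 0.09 for Kdm3b, -0.26 and 0.68 for Kdm4a, -1.05 and 0.14 for Kdm4b, -0.35 and 0.46 for Kdm4c, -0.06 and 0.39 for Nsd3, -0.01 and 0.33 for Kdm2a, -0.29 and 0.04 for Kmt5a, -1.95 and 0.06 for Kmt5c, and -9.74 and 0.23 for Kdm8, whose lowest value sets PC against an HC library at 0 counts and is no measure of fold. The cause was not tested. Where a library was left out, the lone one was assumed to vary like the other group. Depth was lowest in HC replicate 3, at 15246529 estimated counts.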
